A study of Mus musculus with 2 samples.

Results

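The 10 genes P2ry12, P2ry13, Gpr34, Cx3cr1, Csf1r, Siglech, Selplg, Tmem119, Olfml3 and Sall1 are taken as markers of resting microglia, the resident macrophages of the brain. They were chosen by name, 10 of the 24130 gene symbols in the matrices, and all 10 were present. Their unique molecular identifiers (UMIs, 1 for each captured RNA molecule) were summed by cell class in 2 libraries made from single cells of mouse hippocampus. The control library came from male C57BL/6 mice, 6 months old, with saline as the labelled treatment. The EMF_AuNPs library came from mice of the same strain, sex and age with gold nanoparticles (AuNPs) injected into the hippocampus and 3 weeks of exposure to an electromagnetic field (EMF). The titles of both samples call the brain aged. The protocol does not settle whether the saline mice also lay between the coils, and the number of mice per library is not given in the sources used here. With 1 library per group no difference between the libraries has a replicate check: treatment, dissection and library cannot be told apart, and intervals below are 95% intervals that cover counting error only.

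As background, homeostatic microglia survey the tissue with motile processes and read signals of neighbouring cells through surface receptors. P2ry12 and P2ry13 are receptors for ADP, which leaks from damaged cells, and P2ry12 steers process outgrowth towards it. Cx3cr1 is the receptor for fractalkine (Cx3cl1), and Csf1r binds the survival factors encoded by Csf1 and Il34. Sall1 is a zinc finger transcription factor that maintains microglial identity. The set is known to fall when microglia take up an activated state such as the disease-associated state, whose genes include Spp1, Lpl and Cst7.

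The control library held 21583 barcodes and 51091452 UMIs (median 1904 per barcode), and the EMF_AuNPs library 7003 barcodes and 19544686 UMIs (median 2310). Cells were assigned to 16 classes by the share of their UMIs in marker genes, none of them among the 10. Of these classes, 9 had at least 50 cells in each library. Microglia, gated on 10 markers that include C1qa, C1qb, C1qc, Ctss, Trem2, Tyrobp, Fcrls, Ly86 and Aif1, numbered 3242 control cells (median 1518 UMIs) and 815 EMF_AuNPs cells (median 1884). All 10 gate markers were detected in both. In these cells the gate markers summed to 38702 CPM (UMIs of a gene scaled to 1e+06 UMIs of the class) in the control and 49646 in EMF_AuNPs. Markers of other classes were present too: haemoglobin genes with Alas2 at 1261 and 8263 CPM, oligodendrocyte markers at 1765 and 3567, astrocyte markers at 4045 and 3689, and border macrophage markers at 179 and 215, with Lyve1 at 0 in both. Totals without haemoglobin genes and gate markers are given as an alternative, and the part of the other markers in the results was not tested. The libraries shared 38 barcodes, of which 5 control and 4 EMF_AuNPs barcodes were gated as microglia.

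Each of the 10 genes had its highest CPM in microglia among the 9 classes, in both libraries. Microglia were 15.0% of control and 11.6% of EMF_AuNPs barcodes, and held 62.8% to 69.7% of the control UMIs of every gene but Sall1, for which they held 46.5%. In EMF_AuNPs the shares were 58.4% to 63.5%, and 37.9% for Sall1. Cells that passed several gates, which were left out of the classes, held a further 15.8% to 17.8% of each gene in the control and 10.9% to 12.4% in EMF_AuNPs.

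Within microglia the set did not move as a block. The 10 genes summed to 15642 CPM in the control and 13674 in EMF_AuNPs, a log2 ratio of -0.19 (-0.22 to -0.17). Without Cx3cr1 the other 9 summed to 10568 and 10763 CPM, a log2 ratio of 0.03 (0.002 to 0.051), so the lower sum rests on Cx3cr1. On totals without haemoglobin genes and gate markers the ratio of the 10 was -0.16. Gpr34 was at least 1.5-fold higher in EMF_AuNPs, Cx3cr1 and Siglech were at least 1.5-fold lower, and the other 7 stayed under that size. The calls are by size alone. Among 11503 genes with at least 20 UMIs in microglia, 11.2% were at least 1.5-fold higher and 14.7% at least 1.5-fold lower, so 1 and 2 of 10 are near the share for all genes. The median log2 ratio was 0.03 over the 10 genes and -0.02 over all genes tested.

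**Figure D1:**
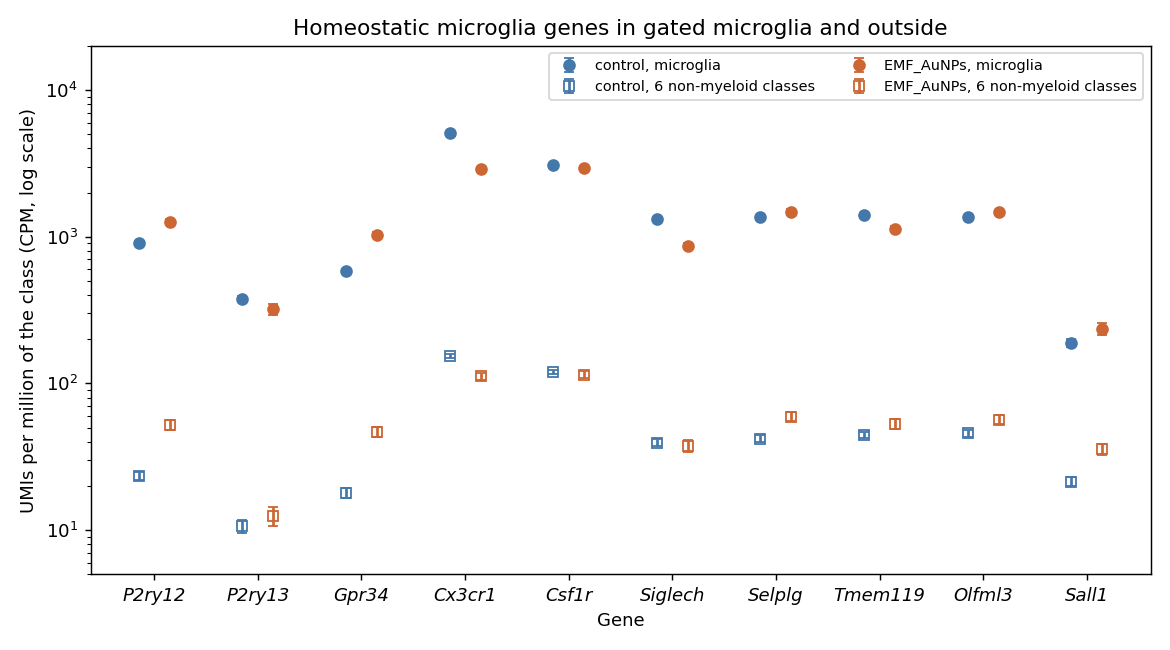
CPM of each gene (log axis) in gated microglia (filled circles) and in the pooled cells of 6 non-myeloid classes (open squares), control in blue and EMF_AuNPs in orange, with 95% Poisson intervals and 1 library per group. Every gene lies far higher in microglia, Cx3cr1 goes from 5073 to 2911 CPM in microglia, and Sall1 has the smallest gap between the filled and open symbols.

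Among the purinergic and lipid receptors, P2ry12 was at 909 CPM in control microglia (4675 UMIs) and 1270 in EMF_AuNPs (2089 UMIs), a log2 ratio of 0.48 (0.41 to 0.56), which is 1.40-fold. P2ry13 was at 377 CPM in the control and 320 in EMF_AuNPs, a log2 ratio of -0.24 (-0.38 to -0.10). Over all gated microglia the intervals of these 2 ratios lie on either side of 0. The sign of P2ry13 did not hold in every group of microglia: it was 0.82 (0.36 to 1.29) in cells of 500 to under 1000 UMIs, the same sign as P2ry12. Gpr34, a receptor for lysophosphatidylserine, was at 584 CPM in the control (3002 UMIs) and 1025 in EMF_AuNPs (1687 UMIs), a log2 ratio of 0.81 (0.73 to 0.90). Its ratio stood at percentile 94.6 among all genes tested in microglia.

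P2ry12 and P2ry13 are neighbours on the minus strand of chromosome 3 (RefSeq, GRCm38.p6: P2ry12 at 59216271 to 59262985, P2ry13 at 59207892 to 59210882), 5388 bases apart. Both lie within Med12l, which runs on the other strand, and Gpr34 (chromosome X, 13622650 to 13640859) overlaps Cask on the other strand. Whether counting used the strand is not given in the sources used here, so reads of such partners may be mixed. Csf1r was not looked up in the RefSeq promoter table. Of the other genes the table held 6 (P2ry12, P2ry13, Cx3cr1, Siglech, Olfml3 and Sall1). The 100 bases before the start are shown for the 2 adjacent receptors, because they are neighbours whose ratios over all microglia had opposite signs, and for Cx3cr1 (chromosome 9, minus strand, 120048683 to 120068296), because its ratio was the lowest of the 10. Capitals mark AGGAAG, the purine-rich core that the myeloid transcription factor Spi1 (PU.1) is known to bind, searched on both strands.
P2ry12, chr3:59262986-59263085, minus strand: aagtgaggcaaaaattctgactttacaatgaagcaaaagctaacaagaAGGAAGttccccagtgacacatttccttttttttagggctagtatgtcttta
P2ry13, chr3:59210883-59210982, minus strand: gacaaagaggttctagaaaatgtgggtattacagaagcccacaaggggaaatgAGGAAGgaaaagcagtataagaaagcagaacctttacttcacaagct
Cx3cr1, chr9:120068297-120068396, minus strand: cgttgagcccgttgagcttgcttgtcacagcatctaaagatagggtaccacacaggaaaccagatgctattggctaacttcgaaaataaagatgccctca
The match began at -52 from the start in P2ry12 and at -47 in P2ry13, and these letters were not in the window of Cx3cr1. Nor were they in the windows of Siglech, Olfml3 and Sall1, which are not shown. They occur in the same window of 13.8% of 32851 RefSeq promoters, so a match is a description of the sequence only.

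Cx3cr1 had the lowest ratio of the 10. It was at 5073 CPM in control microglia (26080 UMIs) and 2911 in EMF_AuNPs (4790 UMIs), a log2 ratio of -0.80 (-0.85 to -0.76), or 1.74-fold lower. Csf1r, the receptor on which microglial survival depends, stood at 3073 and 2960 CPM, a log2 ratio of -0.05 (-0.10 to -0.01). The first of this pair of receptors was past the size for a call and the second was far under it. In control microglia Csf1r had 0.606 UMIs for each Cx3cr1 UMI (0.594 to 0.618), and in EMF_AuNPs 1.02 (0.977 to 1.06).

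Siglech, a sialic acid-binding lectin, was at 1323 CPM in the control and 867 in EMF_AuNPs, a log2 ratio of -0.61 (-0.69 to -0.53). At 1.52-fold it lay just past the size used for a call, and it fell under that size in 4 alternative settings, namely a halved gate threshold (-0.58), microglia of at least 2000 UMIs (-0.44), totals without haemoglobin genes and gate markers (-0.58) and microglia taken by cluster (-0.40). Selplg, the glycoprotein ligand of P-selectin, was at 1363 CPM in the control and 1485 in EMF_AuNPs, a log2 ratio of 0.12 (0.06 to 0.19).

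Tmem119, a membrane protein used to tell microglia from other macrophages, was at 1397 CPM in the control and 1137 in EMF_AuNPs, a log2 ratio of -0.30 (-0.37 to -0.22). Its neighbour on chromosome 5 is Selplg, 17401 bases away on the same strand, whose ratio had the other sign. Olfml3, a secreted olfactomedin-like protein, was at 1356 CPM in the control and 1465 in EMF_AuNPs, a log2 ratio of 0.11 (0.04 to 0.18). Sall1 was the least counted, with 965 and 387 UMIs. It was at 188 CPM in the control and 235 in EMF_AuNPs, a log2 ratio of 0.32 (0.15 to 0.50).

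**Figure D2:**
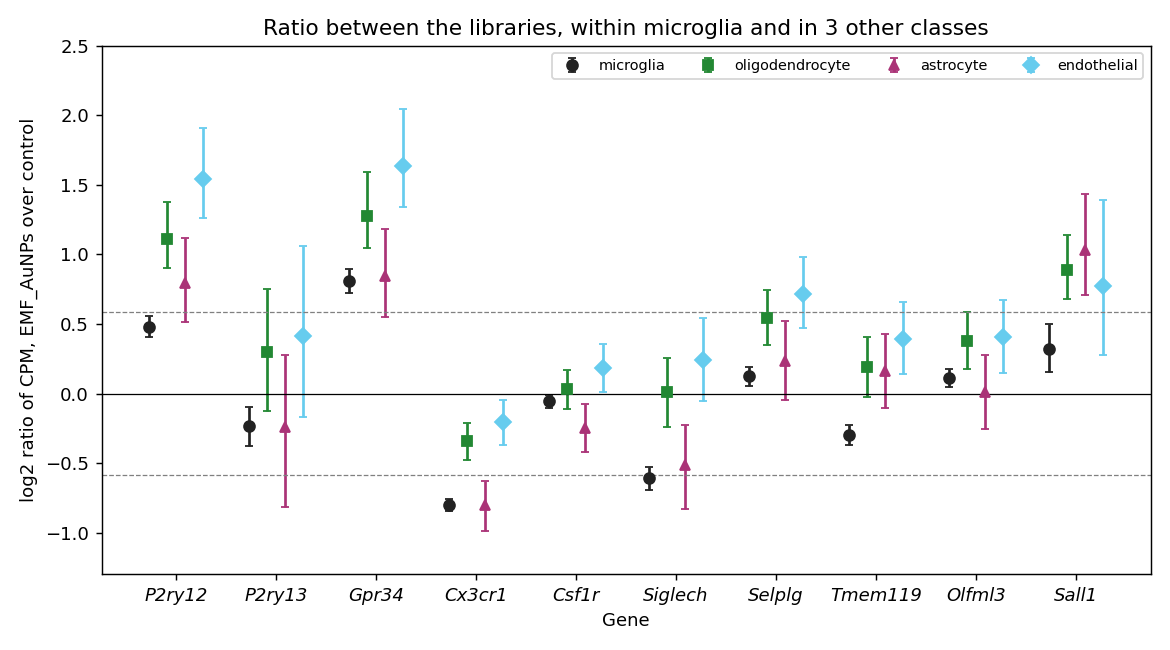
Log2 ratio of CPM, EMF_AuNPs over control (1 CPM added), for each gene in microglia and in oligodendrocytes, astrocytes and endothelial cells, with exact conditional binomial intervals at 95% (counting error only, 1 library per group). Dashed lines mark 1.5-fold. Gpr34 and P2ry12 lie above 0 in all 4 classes and Cx3cr1 below 0 in all 4. Within some clusters of the non-myeloid classes Cx3cr1 turned sign, with 0.96 in oligodendrocyte cluster 15 but -1.26 in cluster 16. In cluster 16 P2ry12 (-0.21) and Gpr34 (0.38) had intervals that include 0.

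The share of microglia in which a gene was detected was taken next. Each cell was thinned to 1000 UMIs, which left out shallower cells and kept 2798 control and 609 EMF_AuNPs microglia. Cx3cr1 was detected in 97.8% of control and 86.7% of EMF_AuNPs microglia, a difference of -11.1 percentage points (-14.1 to -8.54). At 2000 UMIs per cell, where 99.1% and 97.9% held it, the difference was -1.25 points with an interval that includes 0 (-3.30 to 0.29). Siglech went from 70.9% to 56.8% (-14.1 points, -18.4 to -9.89). Gpr34 was detected more often, going from 43.9% to 58.1% (14.2 points, 9.84 to 18.5), and P2ry12 from 57.8% to 65.8% (8.02 points, 3.76 to 12.1). Without thinning the shares were 94.5% and 88.0% for Cx3cr1, 79.8% and 69.8% for Siglech, 56.0% and 75.1% for Gpr34, and 68.4% and 73.1% for P2ry12. The intervals for Selplg and Olfml3 included 0.

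Detection of Tmem119 went from 72.9% to 66.5%, of Csf1r from 94.1% to 91.6%, and of Sall1 from 16.9% to 21.2%. P2ry13 went from 31.4% to 25.8% at 1000 UMIs (-5.64 points), but its sign turned at 500 UMIs (1.96 points) and without thinning (1.76 points), so no direction is read from its share. A median of 6 of the 10 genes was detected per thinned microglial cell in both libraries. None of the 10 was detected in 4 of 2798 control and 7 of 609 EMF_AuNPs cells, and all 10 in 24 and 6 cells.

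**Figure D3:**
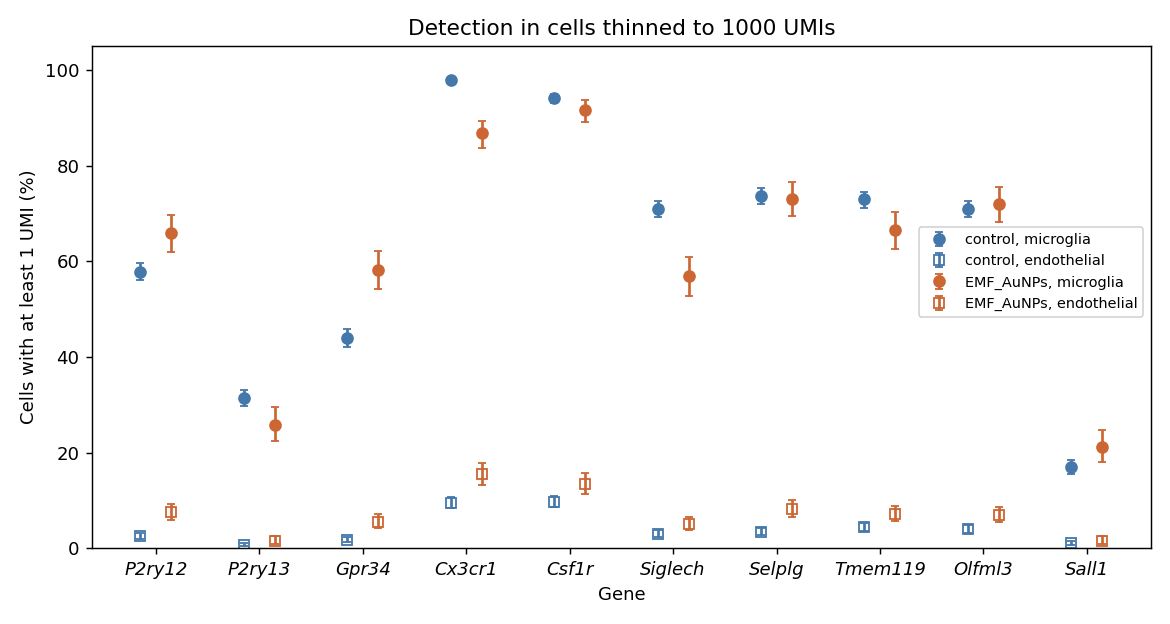
Percent of cells with at least 1 UMI of each gene after thinning to 1000 UMIs, in microglia (filled circles) and endothelial cells (open squares), control in blue and EMF_AuNPs in orange, with Clopper-Pearson intervals at 95%. In microglia Cx3cr1 is at 97.8% and 86.7% and Gpr34 at 43.9% and 58.1%, and no gene passes 15.4% in endothelial cells.

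The differences were then followed through microglia of like depth, a split added after the values were seen. Among cells of 500 to under 1000, 1000 to under 2000 and 2000 to under 4000 UMIs, the Cx3cr1 log2 ratio was -0.79, -0.91 and -0.51. Gpr34 gave 1.36, 0.86 and 1.04, and P2ry12 gave 0.67, 0.34 and 0.85. These 3 genes kept their direction in every depth range. P2ry13 did not: it gave 0.82 (0.36 to 1.29), 0.04 (-0.22 to 0.30) and -0.24 (-0.46 to -0.02). Siglech gave -0.64, -0.53 and -0.38, which passed 1.5-fold in the shallowest range only. Cx3cr1 was under 1.5-fold in the range of 2000 to under 4000 UMIs. The summed level of the 10 genes gave 0.09, -0.17 and -0.00.

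A clustering of all cells that left the 10 genes out divided gated microglia mainly between 2 clusters. Cluster 11, with Ccl4 and Ccl3 among its leading genes, held 2817 control and 580 EMF_AuNPs gated microglia. There Cx3cr1 was at 5419 and 3260 CPM (log2 ratio -0.73, -0.78 to -0.69) and Gpr34 at 615 and 1136 (0.88, 0.79 to 0.98). Cluster 0, with Hmha1 and Ctss among its leading genes, held 267 and 154 gated microglia. These held fewer UMIs per cell than those of cluster 11 in both libraries, and the part of depth in the cluster values was not tested. In cluster 0 Cx3cr1 was low in both libraries, at 1548 and 1492 CPM (-0.05, -0.31 to 0.20), an interval that includes 0. Gpr34 in cluster 0 was at 397 and 1041 CPM (1.39, 0.99 to 1.80) and P2ry12 at 372 and 833 (1.16, 0.73 to 1.60). P2ry13 was higher there too, at 163 and 326 CPM (1.00, 0.32 to 1.70), and lower in cluster 11 (-0.17, -0.32 to -0.03). Summed over the 10 genes the clusters differed in sign, at -0.12 (-0.14 to -0.10) in cluster 11 and 0.43 (0.33 to 0.54) in cluster 0, and the difference between clusters was not tested.

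The 10 genes were set against activation genes in the same thinned cells. Microglia with no UMI of 9 cytokine and chemokine genes (Ccl3, Ccl4, Tnf and others) were 46.7% of control and 47.3% of EMF_AuNPs cells. The summed level of the 10 genes was 16908 CPM in those control cells and 13931 in the 116 control cells with at least 10 such UMIs. In EMF_AuNPs it was 15024 CPM and 12400 (30 cells). The 2 libraries thus shared this order, and Cx3cr1 was lower in EMF_AuNPs at each level of these genes: 5461 against 3222 CPM with no such UMI, and 4534 against 1933 with at least 10. Both lists are shares of the same 1000 UMIs of a cell.

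Cells with at least 1 UMI of 6 core genes of the disease-associated state (Lpl, Cst7, Itgax, Spp1, Axl and Clec7a, a split chosen after the values were seen) were 5.93% of control and 13.8% of EMF_AuNPs microglia. Against cells with none, the summed level of the 10 genes was lower in them, at 13247 against 16436 CPM in the control and 11476 against 15053 in EMF_AuNPs. Gpr34 was at 440 against 614 CPM in the control and 595 against 1154 in EMF_AuNPs. P2ry12 was at 717 against 977 CPM and at 1060 against 1398. With at least 3 such UMIs there were 8 control and 17 EMF_AuNPs cells, in which the sum was 8875 CPM (6931 to 11195) and 6882 (5692 to 8248). In the cells without any of the 6 genes Cx3cr1 was at 5327 CPM in the control and 3181 in EMF_AuNPs, and Gpr34 at 614 and 1154. Among the compared classes of the control, Spp1, Axl and Lpl were highest in mural cells (52.5, 121 and 27.8 CPM). Clec7a was highest in control border macrophages (65.7 CPM), and Cst7 and Itgax in control microglia. In EMF_AuNPs Axl was highest in mural cells and Clec7a in border macrophages, and Spp1, Lpl, Cst7 and Itgax in microglia. The part of RNA from other cells in this split was not tested.

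Other gene lists gave the setting for the 10. Of 27 other homeostatic microglia genes 26 had at least 20 UMIs, 0 were at least 1.5-fold higher and 5 at least 1.5-fold lower, with a median log2 ratio of -0.23. Over all genes in microglia 11.2% were higher and 14.7% lower. Golm1, a Golgi membrane protein, was at 559 CPM in the control and 280 in EMF_AuNPs (-0.99). Hpgd, which inactivates prostaglandins, was at 476 and 246 (-0.95). Entpd1, the CD39 enzyme that breaks down extracellular ATP and ADP, was at 345 and 191 (-0.85). Upk1b was at 79.2 and 51.0 (-0.62). Mef2a, the fifth, was at 392 and 258 (-0.60) and is named after its value was seen.

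Of 21 genes of the disease-associated state, 14 were at least 1.5-fold higher in EMF_AuNPs and 0 lower, beside 11.2% and 14.7% of all genes. The median log2 ratio of the 21 was 1.09. Spp1 (osteopontin) was at 7.98 CPM in the control and 399 in EMF_AuNPs. Its 656 EMF_AuNPs UMIs came from 27 of 815 cells, and its 41 control UMIs from 23 of 3242. Lpl, lipoprotein lipase, was at 12.8 and 111 CPM (3.02), Lgals3 (galectin) at 11.7 and 83.9 (2.74), and Lyz2 (lysozyme) at 159 and 718 (2.17). Border macrophages express Lyz2 too, at 2749 and 5577 CPM.

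Of 9 cytokine and chemokine genes 3 were at least 1.5-fold higher and 1 lower, with a median of 0.34, beside 11.2% and 14.7% of all genes. Il1a was at 43.6 CPM in the control and 85.1 in EMF_AuNPs, and Il1b at 40.9 and 63.2. Cxcl10 was at 16.5 and 10.3 CPM, with an interval of its log2 ratio that includes 0 (-1.52 to 0.08). Ccl2 was at 20.8 and 29.8 CPM, under the size used for a call. Ccl7, the third of the higher genes, was at 2.72 and 18.8 CPM on 14 and 31 UMIs and is named after its value was seen. Border macrophages had the highest Ccl7, at 435 and 781 CPM, and the highest Il1b, at 91 and 217. Il1a was highest in microglia. Of 17 immediate early and dissociation genes 3 were higher and 3 lower, with a median of 0.25, again beside 11.2% and 14.7% of all genes. Klf4 was at 497 CPM in the control and 201 in EMF_AuNPs, Fos at 1993 and 1161, and Atf3 at 556 and 346. Socs3, a feedback inhibitor of cytokine signalling, was at 131 and 229. Zfp36 (288 and 438 CPM) and Hspa1b (7.39 and 16.4), the other higher genes, are named after their values were seen.

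The ligands of these receptors were set out over the 9 compared classes. These leave out neurons (192 control and 13 EMF_AuNPs cells), whose levels are not given. Of 11 ligands and partners 7 had at least 20 UMIs in microglia. Of these 0 were at least 1.5-fold higher and 1 lower, beside 11.2% and 14.7% of all genes. The lower gene was Entpd1, which is also on the homeostatic list. Cx3cl1, the ligand of Cx3cr1, was highest in endothelial cells among the 9 classes (43.0 CPM in the control, 44.4 in EMF_AuNPs). Of the Csf1r ligands, Csf1 was highest in oligodendrocytes (80.4 and 67.2 CPM) and Il34 in mural cells (139 and 165). Tgfb1, which encodes a cytokine that upholds the homeostatic program, was highest in microglia themselves, at 270 and 345 CPM (0.36). Nrros, which anchors that cytokine on microglia, was at 78.2 and 86.9 CPM in microglia and higher in border macrophages, at 121 and 250 CPM. These levels gave no difference of 1.5-fold in Cx3cl1, Csf1 or Tgfb1 between the libraries in the classes named. Nrros was past that size in border macrophages, a class of 121 control and 89 EMF_AuNPs cells.

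Outside microglia, border macrophages (121 control and 89 EMF_AuNPs cells) were second for 9 of the 10 genes in both libraries. Csf1r came closest, at 1966 CPM in control and 2098 in EMF_AuNPs border macrophages, which left microglia 1.56-fold and 1.41-fold higher. P2ry12 in microglia was 10.6-fold and 8.08-fold above border macrophages, Selplg 10.4-fold and 10.7-fold, and Tmem119 9.88-fold and 8.79-fold. Cx3cr1 was 4.67-fold and 4.01-fold above them. In border macrophages the 10 genes summed to 4093 and 4191 CPM (log2 ratio 0.03, -0.10 to 0.17). Of 9 genes with at least 20 UMIs there, 3 were at least 1.5-fold higher and 0 lower, where 18.5% and 17.3% of 3071 genes were.

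In the 6 other nucleated classes compared (oligodendrocytes, astrocytes, endothelial, mural, ependymal and choroid plexus cells) the 10 genes were present at a low level. Pooled, they summed to 519 CPM in the control and 580 in EMF_AuNPs, which is 3.32% (3.27 to 3.37) and 4.24% (4.15 to 4.34) of the microglial level of the same library. The control value depended on the handling of mixed cells: it was 5.07% in both libraries with cells of several gates given to the highest gate, and 1.76% and 3.44% with halved gate thresholds. The gate markers of microglia stood at 3.97% and 4.61% in the same cells. Apart from Sall1, each of the genes lay between 2.57% and 3.90% in the control and 3.84% and 4.66% in EMF_AuNPs. Choroid plexus cells, with medians of 12512 and 13998 UMIs per cell, were at 0.968% and 0.909%. Red blood cells, which hold little RNA of their own other than haemoglobin, were at 2.58% and 4.35%.

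The proportions between the 10 genes in these cells were set beside those in microglia of the same library. In microglia there were 5.58 Cx3cr1 UMIs for each P2ry12 UMI in the control (5.41 to 5.76) and 2.29 in EMF_AuNPs (2.18 to 2.42). In the 6 non-myeloid classes the same ratio was 6.58 (6.11 to 7.10) in the control and 2.14 (1.95 to 2.34) in EMF_AuNPs. Siglech to Gpr34 gave 2.26 in control microglia and 2.19 outside, and 0.846 in EMF_AuNPs microglia and 0.805 outside. For these 2 ratios the libraries lay further apart than microglia and the pooled classes within a library. The same held for Csf1r to Cx3cr1, at 0.606 in control microglia and 0.777 outside, and 1.02 and 1.03 in EMF_AuNPs. Olfml3 to P2ry12 was 1.49 in microglia and 1.95 outside in the control, and 1.15 and 1.09 in EMF_AuNPs. For it the libraries lay further apart outside microglia, but in microglia slightly closer than microglia and the pooled classes of the control. Sall1 to P2ry12 did not follow, at 0.206 in microglia and 0.914 outside in the control, and 0.185 and 0.680 in EMF_AuNPs. The control intervals of the Cx3cr1 to P2ry12 ratio do not overlap between microglia and the pooled classes. Border macrophages had ratios of 12.6 (7.72 to 22.1) and 4.62 (3.17 to 6.90).

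**Figure D4:**
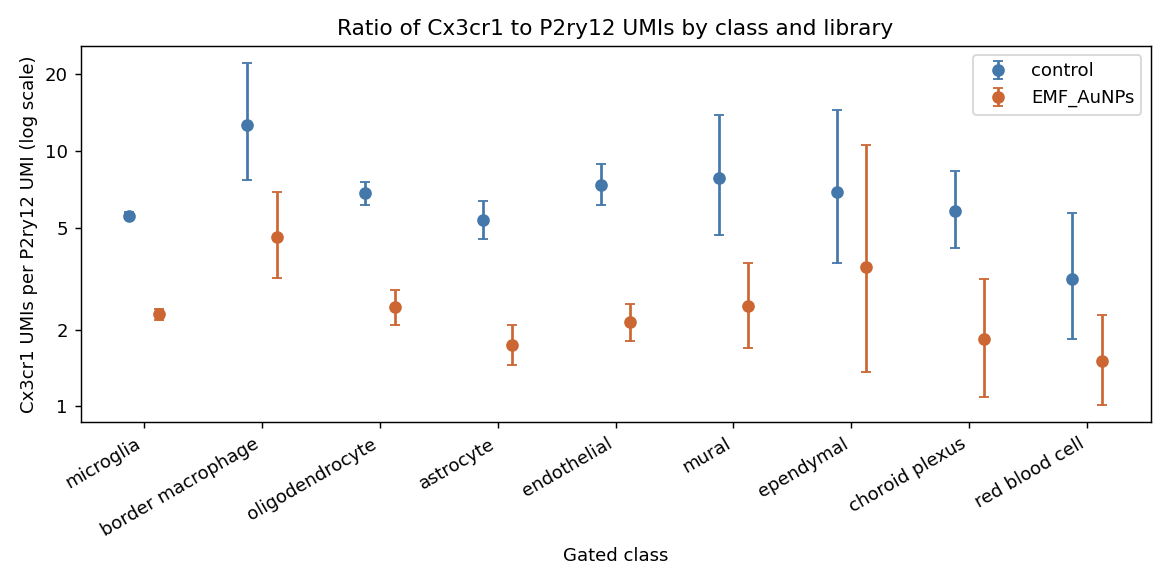
UMIs of Cx3cr1 for each UMI of P2ry12 (log axis) in the 9 classes, control in blue and EMF_AuNPs in orange, with exact binomial intervals at 95%. In microglia the ratio is 5.58 in the control and 2.29 in EMF_AuNPs, and the blue point lies above the orange one in every class.

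Differences between the libraries were also present in cells that should lack these genes. Gpr34 was at 61.4 CPM in EMF_AuNPs endothelial cells (184 UMIs) and 3.12-fold lower in control ones (111 UMIs) (log2 ratio of EMF_AuNPs over control 1.64, 1.34 to 2.04), and P2ry12 at 23.1 CPM in the control and 69.4 in EMF_AuNPs (1.54, 1.27 to 1.91). In endothelial cells 4 of the 10 were at least 1.5-fold higher and 0 lower, where 12.1% and 8.99% of 11976 genes were. In oligodendrocytes 3 were higher and 0 lower (7.21% and 10.5% of 12711 genes). In astrocytes 3 were higher and 1, Cx3cr1, lower (18% and 9.05% of 11978 genes). Cx3cr1 in astrocytes was at 169 CPM in the control and 96.4 in EMF_AuNPs, a log2 ratio of -0.80 (-0.99 to -0.63).

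Oligodendrocytes and astrocytes of the 2 libraries lay largely in different clusters. Cluster 15 held 79.5% of control and 13.7% of EMF_AuNPs oligodendrocytes, and cluster 16 held 7.89% and 77.0%. Cluster 4 held 72.6% of control and 5.32% of EMF_AuNPs astrocytes, and cluster 8 held 0.669% and 55.9%. Endothelial cells shared cluster 2, with 76.7% and 85.5%. Within clusters, a split added after the values were seen, the class ratios did not all hold. Cx3cr1 gave 0.96 (0.55 to 1.37) in oligodendrocyte cluster 15 and -1.26 (-1.46 to -1.08) in cluster 16. It gave 0.64 (0.44 to 0.86) in endothelial cluster 2, and 0.29, 0.75 and 0.37 in astrocyte clusters 4, 5 and 6, so no direction of Cx3cr1 is read from these classes. P2ry12 and Gpr34 gave 2.31 and 2.39 in oligodendrocyte cluster 15, but -0.21 and 0.38 in cluster 16 with intervals that include 0. In endothelial cluster 2 they gave 2.06 (1.72 to 2.56) and 1.95 (1.59 to 2.46).

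Counts over genes with at least 20 UMIs were also taken in the remaining groups of cells, and they differed between groups. In mural cells 6 of 10 were at least 1.5-fold higher and 0 lower, where 16.7% and 12.5% of 8368 genes were. In ependymal cells 1 of 8 was higher and 2 lower (20.7% and 11.7% of 6522 genes), and in choroid plexus cells 3 of 9 were higher and 1 lower (29.9% and 5.5% of 10205 genes). Red blood cells had 4 of 8 higher and 0 lower (28.6% and 13.5% of 2658 genes). Cells of several gates had 1 of 10 higher and 2 lower (9.94% and 11.2% of 12783 genes), and cells of no gate 6 of 10 higher and 0 lower (28.2% and 10.6% of 10009 genes). Gpr34 was among the higher genes in mural, ependymal (9 and 18 UMIs), choroid plexus and red blood cells, in cells of several gates and in cells of no gate.

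The stray UMIs were not spread alike in the 2 libraries. In the control, cells of the 6 classes with at least 10 UMIs of the microglia gate markers were 8.03% of 13891 cells and held 60.5% of the UMIs of the 10 genes. In EMF_AuNPs they were 18.9% of 4338 cells and held 41.5%. Cells with 0 or 1 marker UMI were 48.5% of the control and 4.91% of the EMF_AuNPs cells. Taking only those, the level of the 10 genes was 1.14% (1.10 to 1.19) of that in microglia in the control and 3.24% (2.83 to 3.69) in EMF_AuNPs. Endothelial cells thinned to 1000 UMIs held at least 1 of the 10 genes in 26.1% of 2421 cells of the control library (interval 24.4 to 27.9) and 49.1% of 1030 cells of EMF_AuNPs (46.0 to 52.2), and at least 5 of the 10 in 23 and 8 of these cells. Unthinned depth differed too, with medians of 1591 and 2235 UMIs per endothelial cell. The part of free RNA and of doublets in these levels was not tested.

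**Figure D5:**
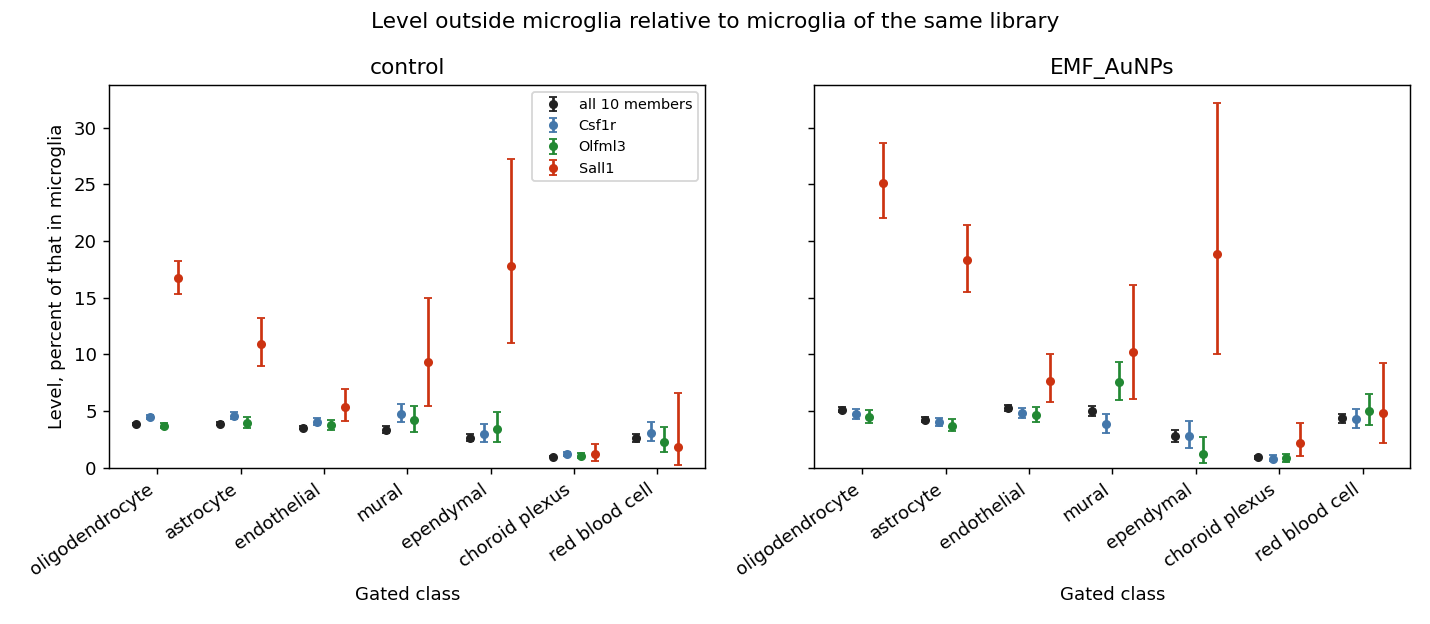
Level in 7 classes as percent of the microglial level of the same library, for the sum of the 10 genes (black), Csf1r (blue), Olfml3 (green) and Sall1 (red), control on the left and EMF_AuNPs on the right, with 95% Poisson intervals. Sall1 lies above the sum in oligodendrocytes, at 16.8% and 25.1%, and in astrocytes, at 10.9% and 18.3%.

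Sall1 stood apart from the other 9. In the 6 non-myeloid classes it was at 11.4% (10.6 to 12.2) of its microglial level in the control and 15.1% (13.8 to 16.5) in EMF_AuNPs. Oligodendrocytes had 31.5 CPM in the control (521 UMIs) and 59.1 in EMF_AuNPs (228 UMIs), a log2 ratio of 0.89 (0.68 to 1.14). Astrocytes had 20.5 CPM (110 UMIs) and 43.1 (155 UMIs), a log2 ratio of 1.03. Although these classes differ in clusters between the libraries, Sall1 was also higher within oligodendrocyte clusters 15 (0.91, 0.30 to 1.51) and 16 (0.99, 0.52 to 1.54) and astrocyte cluster 4 (1.77, 0.71 to 2.80). In astrocyte clusters 5 and 6 it gave 1.40 and 1.75 on at most 18 UMIs per library, with intervals that include 0. Choroid plexus cells had 2.28 and 5.08 CPM. In control oligodendrocytes there were 1.19 Sall1 UMIs for each P2ry12 UMI, against 0.206 in microglia and 0.437 in endothelial cells.

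Restricting oligodendrocytes to those with fewer than 2 UMIs of the microglia gate markers left Sall1 at 25.8 CPM in the control, 13.8% of the microglial level (11.8 to 15.9), while the sum of the 10 genes went from 3.83% to 1.14%. In EMF_AuNPs that restriction left 10 Sall1 UMIs in oligodendrocytes, 48.0% (23.0 to 88.3) of the microglial level, and the sum of the 10 genes went from 5.12% to 4.54%. As a percent of the microglial level, Sall1 in oligodendrocytes and astrocytes was thus above the sum of the 10 genes in both libraries. Ependymal cells, second for Sall1 in the control at 33.4 CPM, had 21 UMIs there and 13 in EMF_AuNPs.

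Olfml3 was also counted in a class too small to compare. Fibroblasts (86 control and 36 EMF_AuNPs cells) held 364 CPM (281 to 464) in the control and 298 (205 to 418) in EMF_AuNPs, beside 162 and 217 in border macrophages. That is 26.9% and 20.3% of the microglial level, where the other 9 genes summed to 3.29% and 4.29% in the same cells. In mural cells Olfml3 was at 56.6 and 110 CPM (0.95, 0.45 to 1.48), and in EMF_AuNPs mural cells it stood at 7.54% of the microglial level against 4.98% for the sum of the 10 genes. Selplg was found in T or NK cells at 246 CPM (10 UMIs, 21 cells) and 335 CPM (11 UMIs, 14 cells). In the same cells Cx3cr1 was at 836 CPM in the control, but its 34 UMIs came from 2 of the 21 cells.

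Over the 9 classes in 2 libraries (18 points that share cells, libraries and depth), 9 of the 10 genes followed the mean of the others closely, with Pearson r of log2 CPM from 0.928 (Gpr34) to 0.981 (P2ry13), and Sall1 had 0.749. Among genes outside the set and the gate markers, the 8 with the most similar pattern included Bin2 (0.993), Lat2 (0.983), Ptgs1 (0.978), Rgs1 (0.975), Tgfbr1 (0.975), Vsir (0.973) and Hmha1 (0.971). These values describe a pattern set mainly by the gap between microglia and the other classes. Within microglia the 8 had log2 ratios from -0.59 (Rgs1) to 0.23 (Tgfbr1), and only Rgs1, at 234 and 154 CPM, reached 1.5-fold.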

How the data were processed

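Cell suspensions of mouse hippocampus were made with papain and run on a 10x Genomics droplet system, 1 library per group, per the labels' protocols. The deposited matrices hold raw UMI counts per gene and barcode, made by the authors with Cell Ranger 3.0.2 and STAR on build mm10, per the submitters' processing notes; the sources used here give neither strand use nor filters, and the lowest barcode totals are 500 and 501 UMIs.

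Both libraries together have no replicates, so no test was run. Cells were gated on the share of their UMIs in class markers (at least 1.5% for microglia), with at least 3 marker UMIs of 2 distinct markers. Of 136 markers, 5 were not in the matrices under the names used. Cells of several gates were left out, which was the treatment of doublets. Counts were summed by class and library and scaled to CPM, with exact Poisson intervals at 95%. Ratios are log2 of CPM plus 1, EMF_AuNPs over control, with exact conditional binomial intervals. Shares of cells have Clopper-Pearson intervals and their differences Newcombe intervals. UMIs are counts near the 3′ end, so levels are not ranked between genes. A call is a ratio of at least 1.5-fold in a gene with at least 20 UMIs.

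The named genes are the 10 genes in every class, the 4 genes of each other list with the largest ratio in microglia among those with at least 100 UMIs, and the 8 genes of the most similar pattern with at least 200 UMIs; some of these and of the markers are not reported here. The genes and lists were chosen with earlier results of these data known. Gate thresholds were set from the marker shares after the counts were seen, as were the splits by depth, cluster and core genes and the sum without Cx3cr1. Alternatives were other gates, depth minimums, pseudocounts, totals, clusters, cell weights, thinning depths and doublet scores. The calculations were tested on simulated data and ran in python 3.11.15 with numpy 2.4.6, scipy 1.17.1, pandas 2.3.3, scanpy 1.11.5 and matplotlib 3.10.9.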

Additional observations from a re-analysis of the deposited data

Results flagged for a closer look

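Cells that passed no gate, 1100 in the control and 521 in EMF_AuNPs, belong to none of the 16 classes, and the 10 genes were found there above the control level. They summed to 1161 CPM in EMF_AuNPs (781 UMIs) and 721 in the control (1219 UMIs), a log2 ratio of 0.69 (0.56 to 0.82). Gpr34 was at 27.8 CPM in the control and 134 in EMF_AuNPs. The median depth of these cells was 838 UMIs in the control and 908 in EMF_AuNPs.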

How the results depend on the processing

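Each of the 10 genes stayed highest in microglia under every alternative run. The log2 ratio of their sum in microglia was -0.19. It was -0.091 with at least 2000 UMIs per cell, -0.17 relative to the median of all genes, -0.16 on totals without haemoglobin genes and gate markers, -0.16 with each cell weighing the same and -0.0084 in microglia-like clusters. It was -0.22 without the highest doublet scores and -0.14 in microglia with no cytokine or chemokine UMI, both added after seeing the data. P2ry12 joined Gpr34 in being at least 1.5-fold higher with at least 2000 UMIs and in microglia-like clusters. Siglech fell under 1.5-fold with the halved gate threshold, at least 2000 UMIs, totals without haemoglobin genes and gate markers, and the clusters. Cx3cr1 stayed at least 1.5-fold lower in each of these. Over the settings run the ratio of Cx3cr1 ranged from -0.85 to -0.61, of Gpr34 from 0.76 to 1.05 and of Siglech from -0.68 to -0.40. These ranges leave out the splits by depth range and by single cluster. There Cx3cr1 was under 1.5-fold at 2000 to under 4000 UMIs (-0.51) and in cluster 0 (-0.05). The difference in the share of microglia with Cx3cr1 was -11.1 points at 1000 UMIs, -19.6 at 500, -1.25 at 2000 (interval including 0) and -6.53 without thinning. That of P2ry13 reversed, from -5.64 points to 1.96 at 500 UMIs and 1.76 without thinning.

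The level outside microglia was 3.32% in the control and 4.24% in EMF_AuNPs. It was 1.76% and 3.44% with halved gate thresholds, 4.36% and 4.65% with doubled ones, and 5.07% in both with cells of several gates given to the highest gate. It was 1.97% and 4.06% without the highest doublet scores and 1.14% and 3.24% in cells with fewer than 2 microglia marker UMIs. Genes at least 1.5-fold higher in microglia numbered 1292, and 579 with at least 100 UMIs, 2232 without the filter and 485 with 10 CPM added. Genes lower numbered 1692, and 960 with at least 100 UMIs and 635 with 10 CPM added. The cause of these shifts was not tested. Scrublet's own threshold called 3227 control and 0 EMF_AuNPs barcodes, so its calls were not used as planned, and the 3727 and 392 highest scores were left out instead. No paired analysis was possible because each group has 1 library.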

Other observations

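Immediate early and dissociation genes were also set beside the 10 genes in microglia thinned to 1000 UMIs. Cells with no UMI of these genes had the lowest sum of the 10 genes, 13403 CPM in the control and 10129 in EMF_AuNPs. These were 72 control and 31 EMF_AuNPs cells. The 1985 control and 342 EMF_AuNPs cells with at least 10 such UMIs had 16364 and 15108 CPM. In the control the groups with 1 to 4, 5 to 9 and at least 10 such UMIs lay between 16050.2 and 16498 CPM, and in EMF_AuNPs between 13708 and 15108.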
